A study of Mus musculus with 8 samples.

Results

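The Kruppel-like factor (KLF) genes Klf2, Klf3, Klf4, Klf5, Klf6, Klf7, Klf9, Klf10, Klf12 and Klf15 were taken by name from a table of 55353 gene rows, 1 row per gene. All 10 passed the filter on low counts and were among the 13992 genes tested. RNA came from mouse vascular smooth muscle cells of the aorta, revived from frozen stocks and lysed in Trizol, and polyA mRNA was sequenced without keeping strand. There were 4 genotypes with 2 libraries each: E12 wild type (E12 WT), E12 knockout (E12 KO), E47 wild type (E47 WT) and E47 knockout (E47 KO). E12 and E47 are splice forms of the basic helix-loop-helix protein E2A, made from the gene Tcf3, and each knockout has its own wild type. The labels describe the libraries as independent extractions and do not say whether they came from separate cultures or animals, so p-values measure only the spread between extractions. The labels give no strain, age, passage or allele, nor the way each knockout was made.

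KLF proteins carry a run of zinc fingers at the C-terminal end and bind GC-rich and CACCC-type DNA, while their N-terminal parts recruit activators or corepressors. In the vessel wall, KLF2 is best known as the flow-induced factor of quiescent endothelium. KLF4 and KLF5 are known in smooth muscle for their part in the change from the contractile to the proliferating state, and KLF15 is known as a brake on that change. E proteins such as E12 and E47 bind a different element, the E-box CANNTG.

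Library totals ran from 13909230 to 27517374 counts, and a count of 0 allowed up to 3 counts, or 0.117 to 0.224 CPM, in a library. CPM is a gene's counts scaled to a common library size, after correction of the library totals for composition (trimmed means of M values, TMM). Tcf3 was at 109 and 108 CPM in E12 WT, 145 and 143 in E12 KO, 94.6 and 93.7 in E47 WT, and 128 in each E47 KO library. Counts summed over the whole gene do not separate its splice forms, so they do not check either knockout. The E47 WT libraries stood apart by cell type markers. The summed level of 10 endothelial markers was 765 and 697 CPM there and between 5.02 and 13.2 CPM in the other 6 libraries, with no marker at 0 in any genotype. Pecam1 averaged 203 CPM and Cdh5 171 CPM in E47 WT, while Kdr and Tek were low there, at 2.40 and 1.38 CPM. The 12 contractile smooth muscle markers were all detected, with sums of 7998 and 8129 CPM in E47 WT and 3492 to 4636 CPM elsewhere. Myh11, the smooth muscle myosin heavy chain, averaged 98.3 CPM in E47 WT and 7.45, 2.43 and 6.93 CPM in E12 WT, E12 KO and E47 KO. The sum of 8 mesothelial markers was 1585 and 1476 CPM in E12 WT and 875 and 895 in E12 KO. It was 222 and 205 in E47 WT and 398 and 413 in E47 KO, with Wt1 at 0 in E47 WT. The highest of the 8 in E47 WT were Krt18, at 117 CPM, and Upk3b, at 73.1. Msln averaged 1.09 CPM in E47 WT and 44.1 in E47 KO, while Krt18 averaged 1.18 in E47 KO.

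The KLF changes in E12 KO and in E47 KO differed for 6 of the 10 genes by a test of the difference itself, beside 48.6% of all genes. In E12 KO against E12 WT, 3 of the 10 KLF genes passed the test at an adjusted p under 0.05 (edgeR, Benjamini-Hochberg over all genes tested): Klf7 was higher, and Klf5 and Klf12 were lower. Over all genes tested, 46.4% passed, 21.9% higher and 24.5% lower. In E47 KO against E47 WT, 8 of the 10 passed: Klf3, Klf4, Klf5, Klf9 and Klf10 rose, and Klf2, Klf7 and Klf12 fell. There 55.2% of all genes passed, 27.7% higher and 27.5% lower. The shares of both knockouts are also the background for the gene and marker lists below. The median absolute change of the KLF genes was 0.19 on the log2 scale for E12 KO, beside 0.31 for all genes, and 0.83 for E47 KO, beside 0.35 for all genes. The 6 genes whose changes differed were Klf2, Klf4, Klf5, Klf7, Klf9 and Klf10.

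**Figure D1:**
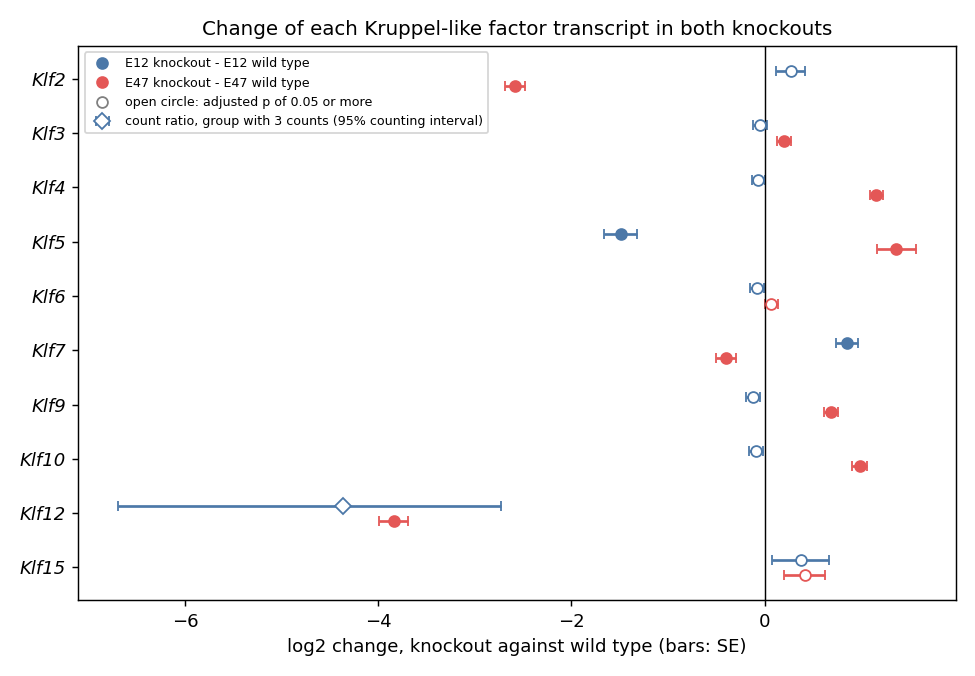
Log2 change of each KLF gene in E12 KO against E12 WT (blue) and in E47 KO against E47 WT (red), with SE bars; filled points passed the test, and the diamond for Klf12 is the ratio of summed counts with its 95% counting interval. Most blue points other than Klf5, Klf7 and Klf12 lie close to 0, and Klf5 moves left in blue and right in red.

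Levels are first compared between genes as mean CPM per kilobase (kb) of exon, since longer transcripts collect more counts. Klf4 stood first in E12 WT, E12 KO and E47 KO, at 99.5, 95.1 and 82.4 CPM per kb, and Klf6 followed at 65.9, 62.2 and 61.8. In E47 WT the order of these 2 genes was turned, with Klf6 at 58.8 and Klf4 at 37.0 CPM per kb. Klf4 and Klf6 together held 74.0% of the summed KLF level in E12 WT, 73.6% in E12 KO, 58.2% in E47 WT and 71.9% in E47 KO. Klf9, Klf3 and Klf10 came next in E12 WT, at 22.6, 15.0 and 12.6 CPM per kb. Klf2 was at 3.23 to 4.56 CPM per kb in 3 genotypes and at 27.6 in E47 WT, where only Klf6 and Klf4 stood above it. Klf12 was the lowest of the 10 in every genotype but E47 WT, at 0.240 in E12 WT, 0.0112 in E12 KO and 0.268 in E47 KO, and reached 3.86 CPM per kb in E47 WT. Klf5 was the lowest member in E47 WT, at 0.342 CPM per kb.

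**Figure D2:**
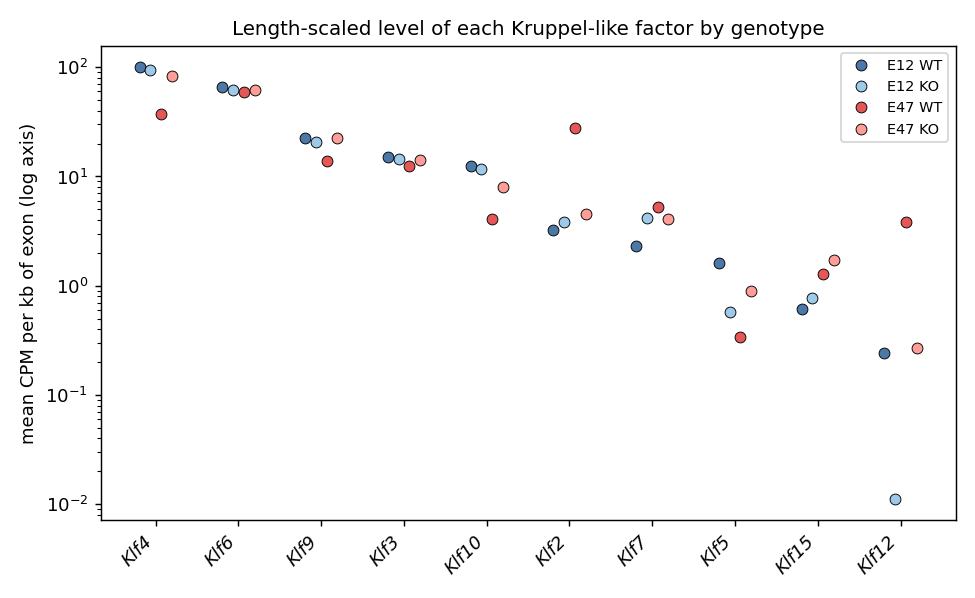
Mean CPM per kb of exon (log axis) of each KLF gene in the 4 genotypes, 1 point per genotype. Klf4 and Klf6 are highest, the E47 WT point of Klf2 and Klf12 lies far above the other genotypes, and the E12 KO point of Klf12 rests on 3 counts.

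The members also differed in how far their genotype means spread. The distance between the highest and lowest genotype mean was 7.14 on the log2 CPM scale for Klf12, 3.07 for Klf2 and 2.17 for Klf5. The lowest Klf12 mean was that of E12 KO, with 3 counts in all. The Klf12 distance thus depends on the prior count of 2 that was added before taking logs. The distance was 1.62 for Klf10, 1.44 for Klf15, 1.43 for Klf4, 1.2 for Klf7 and 0.70 for Klf9. Klf3, at 0.28, and Klf6, at 0.17, varied least, and the median over all genes tested was 0.68. A test of any difference among the 4 genotypes passed for 9 of the 10 KLF genes, all but Klf6, and for 80.8% of all genes.

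**Figure D3:**
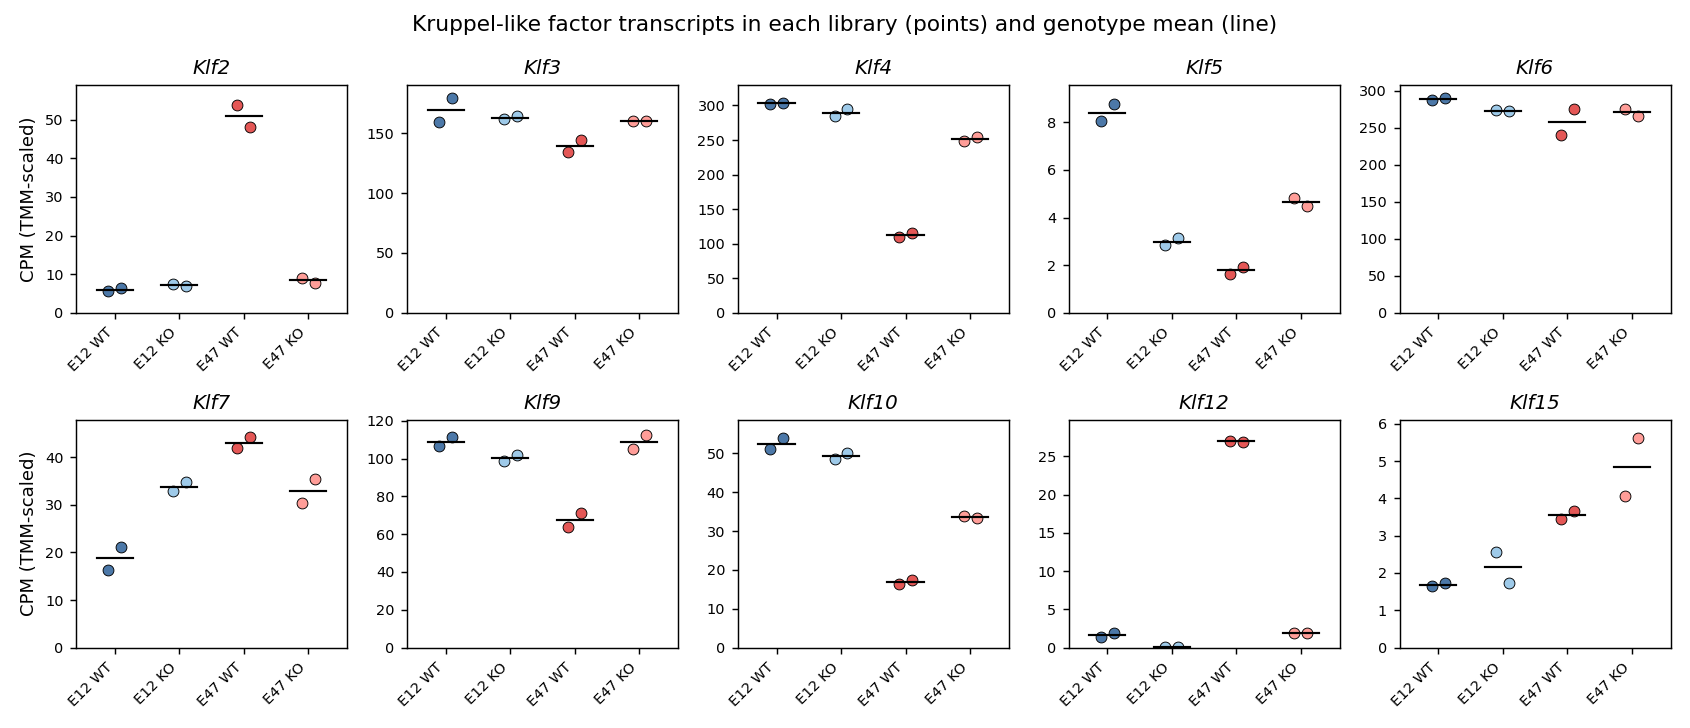
Level of each KLF gene in CPM (linear axes from 0) in the 8 libraries, 2 points per genotype with a line at their mean. Klf2 and Klf12 are highest in E47 WT, Klf4, Klf9 and Klf10 are lowest there, and Klf6 lies between 241 and 291 CPM throughout.

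Klf2 and Klf4 are the members most closely tied to the vessel wall, and both are classical targets of the kinase ERK5 acting through MEF2 factors. Klf2 lies on chromosome 8 at 72319033 to 72321656 (GRCm38, plus strand) and Klf4 on chromosome 4 at 55527143 to 55532466 (minus strand). Their promoters are shown as a description only, since E2A proteins bind the E-box. They were picked with the opposite changes of Klf2 and Klf4 in E47 KO known. The sequences are the 250 bases before the RefSeq start (GRCm38.p6), read 5′ to 3′ on the strand of the gene, with each CANNTG in capitals. The Klf2 window is chr8:72318812-72319061, plus strand, and its last 29 bases lie in the first exon of the GENCODE model. The Klf4 window is chr4:55532476-55532725, minus strand.
Klf2: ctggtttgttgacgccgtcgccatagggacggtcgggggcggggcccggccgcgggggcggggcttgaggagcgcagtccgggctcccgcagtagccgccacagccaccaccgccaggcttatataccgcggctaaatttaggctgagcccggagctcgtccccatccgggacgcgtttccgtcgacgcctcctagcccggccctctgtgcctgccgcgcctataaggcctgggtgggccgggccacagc
Klf4: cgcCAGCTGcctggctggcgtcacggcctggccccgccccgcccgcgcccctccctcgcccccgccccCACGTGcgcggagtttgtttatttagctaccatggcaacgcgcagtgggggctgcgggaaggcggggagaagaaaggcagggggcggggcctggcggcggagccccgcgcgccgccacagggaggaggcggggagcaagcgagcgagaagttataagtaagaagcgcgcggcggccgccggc
The Klf2 window held no CANNTG, and the Klf4 window held CAGCTG from 247 bases and CACGTG from 182 bases before the start. A CANNTG was in 66.2% of 32851 promoters of the same length. The part of these sites in the Klf2 and Klf4 changes was not tested.

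Klf2 was at 5.56 and 6.36 CPM in the E12 WT libraries, 7.39 and 6.85 in E12 KO, 53.8 and 48.2 in E47 WT, and 9.0 and 7.83 in E47 KO. The 2 E47 WT libraries were far above the other 6, which lay close together. In E47 KO, Klf2 fell by 2.58 on the log2 scale against E47 WT (SE 0.105, edgeR adjusted p = 3e-11), a 5.99-fold lower level. In E12 KO, the Klf2 libraries lay just above those of E12 WT without passing the test, with a log2 change of 0.27 (SE 0.148, adjusted p = 0.16). The 2 changes differed by 2.85 (SE 0.182, adjusted p = 7.6e-09). In the order of genotype levels, E47 KO, E12 KO and E12 WT were neighbours whose steps did not pass the test (adjusted p = 0.14 and 0.16). The fall of Klf2 in E47 KO went with the fall of all 10 endothelial markers, for which sums and zeros are given above, and their part in the Klf2 result was not tested. In bulk RNA, fewer cells of a type and less RNA per cell cannot be told apart.

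Klf4 was at 302 and 304 CPM in E12 WT, 285 and 295 in E12 KO, 110 and 116 in E47 WT, and 248 and 254 in E47 KO. Here E47 WT was the low genotype, with both libraries well below the other 6. Klf4 rose by 1.15 on the log2 scale in E47 KO (SE 0.0656, edgeR adjusted p = 1.4e-09), or 2.23-fold, and its log2 change in E12 KO was -0.07 (SE 0.0638, adjusted p = 0.43). The difference between these changes was -1.22 (SE 0.0913, adjusted p = 4.8e-08). E47 KO still lay below E12 KO, by 0.21 (adjusted p = 0.013), a call lost without E12 KO replicate 2 (0.19, adjusted p = 0.083) or E47 KO replicate 1 (0.19, adjusted p = 0.076). KLF4 is known to repress contractile genes. In E47 KO all 12 contractile markers passed the test, 10 lower and 2 higher, beside 27.5% and 27.7% of all genes. Myh11 was lower by 3.82 and Cnn1, a calponin, lower by 2.38 on the log2 scale. The 2 higher were Myocd, a coactivator of contractile genes, by 1.30, and Tpm2, by 0.18. Tpm2 passed only at the threshold (edgeR adjusted p = 0.05 as rounded). In E12 KO 7 fell and 3 rose, beside 24.5% and 21.9% of all genes. Myh11 was lower by 1.62 there, with no Klf4 change past the test. The part of these markers in the Klf4 result was not tested.

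**Figure D4:**
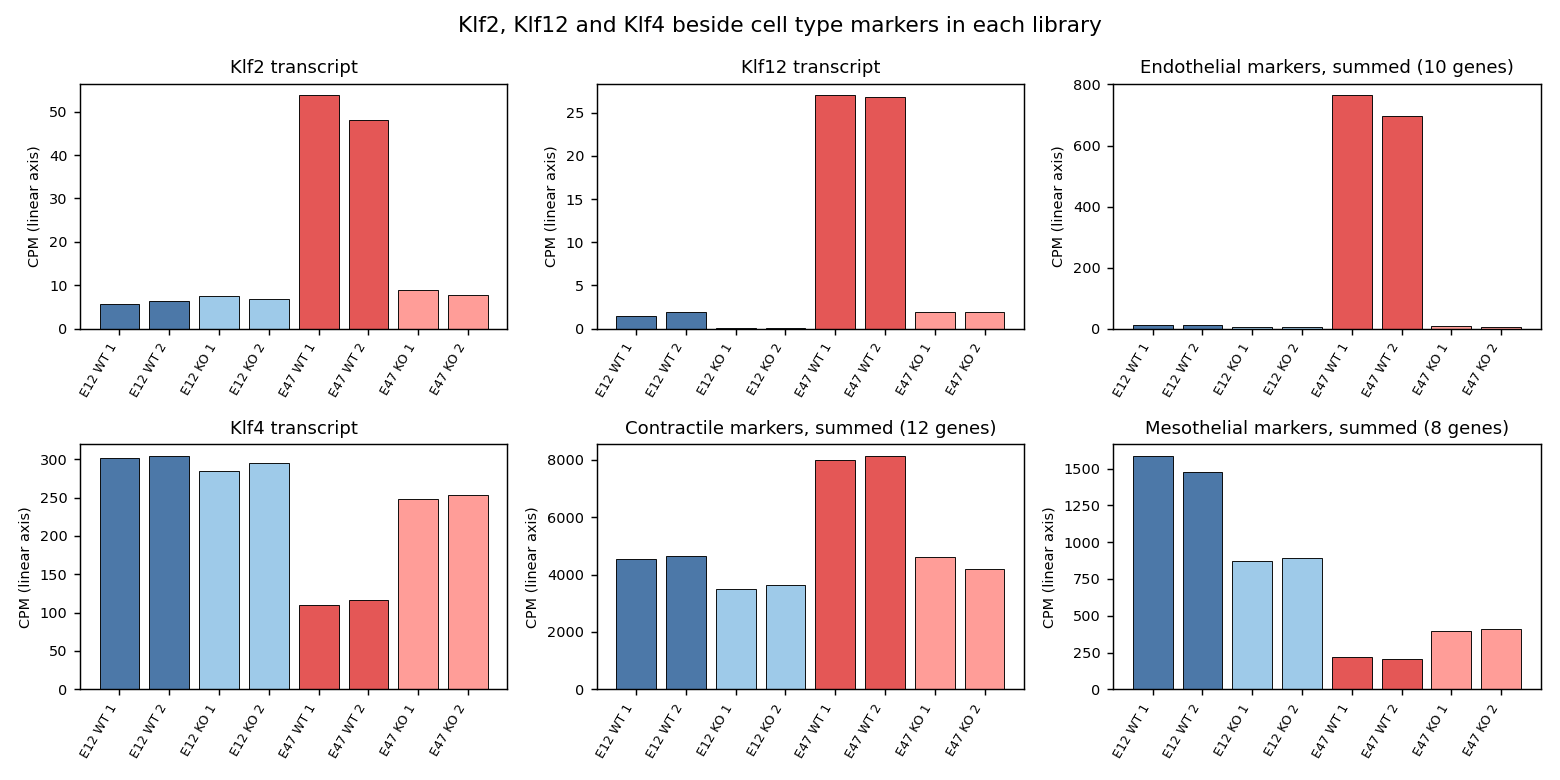
CPM per library (linear axes from 0) of Klf2, Klf12 and Klf4 beside the summed CPM of endothelial, contractile smooth muscle and mesothelial markers. The E47 WT bars are the highest for Klf2, Klf12, endothelial and contractile markers and the lowest for Klf4 and mesothelial markers.

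Tested genes of the ERK5, MEF2 and serum response factor (SRF) routes to Klf2 and Klf4 numbered 17. In E12 KO 4 were higher and 4 lower, beside 21.9% and 24.5% of all genes. The median log2 change was 0.08, beside -0.01 for all genes. In E47 KO 5 were higher and 8 lower, beside 27.7% and 27.5% of all genes. The median there was -0.13, beside 0.01 for all genes. Mef2c, a MEF2 factor of muscle and endothelium, rose by 2.23 on the log2 scale in E12 KO (edgeR adjusted p = 9.6e-10), from a mean of 7.12 to 33.5 CPM. Myocd, the SRF coactivator of contractile genes, fell by 2.79 there (adjusted p = 5.5e-08), and Mrtfa, a related coactivator, fell by 0.53. In E47 KO the lowest p-values belonged to Mrtfb, lower by 1.21, the class IIa deacetylase Hdac9, lower by 2.34, and the ETS factor Elk3, lower by 0.74. Mapk7, which encodes ERK5 itself, was at 33.7, 35.5, 26.8 and 35.2 CPM in E12 WT, E12 KO, E47 WT and E47 KO.

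All 20 genes listed as vascular targets of KLF2 and KLF4 were tested. In E12 KO 4 were higher and 8 lower, beside 21.9% and 24.5% of all genes. The list median was -0.51 on the log2 scale, or -0.48 with genes of 3 counts or fewer set to that floor. In E47 KO 7 were higher and 11 lower, beside 27.7% and 27.5% of all genes, with a median of -1.76. In E12 KO thrombomodulin (Thbd) fell by 1.40 (edgeR adjusted p = 3.6e-10) and tissue plasminogen activator (Plat) rose by 1.21. In E47 KO the endothelial cadherin Cdh5 fell by 9.02, Icam1 by 5.36 and endothelin 1 (Edn1) by 2.72. Cdh5 and Tek are also on the endothelial marker list, and 11.7% of the exon length of Icam1 is shared with other gene models.

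Klf5 and Klf6 are early-response members. KLF5 is known to drive smooth muscle proliferation and remodelling, and KLF6 is known as an injury-induced regulator of TGF-beta pathway genes. Klf5 lies on chromosome 14 at 99298691 to 99315036, plus strand, and Klf6 on chromosome 13 at 5861482 to 5870394, plus strand. Klf5 was at 8.05 and 8.75 CPM in E12 WT, 2.85 and 3.13 in E12 KO, 1.65 and 1.91 in E47 WT, and 4.84 and 4.48 in E47 KO. The 4 genotypes did not overlap in any pair, and the order ran from E12 WT through E47 KO and E12 KO down to E47 WT, each step past the test (adjusted p = 0.00071, 0.0077 and 0.0089). The step between the knockouts was lost without E12 KO replicate 1 (adjusted p = 0.064) or E47 KO replicate 1 (adjusted p = 0.059). Klf5 fell in E12 KO by 1.49 (SE 0.170, edgeR adjusted p = 4.5e-06), or 2.81-fold, and rose in E47 KO by 1.36 (SE 0.199, adjusted p = 4.1e-05), or 2.57-fold. The difference between these changes was -2.85 (SE 0.262, adjusted p = 4.6e-07). Of the 7 mesothelial markers tested, 5 fell and 2 rose in E12 KO, beside 24.5% and 21.9% of all genes. In E47 KO 6 rose and 1 fell, beside 27.7% and 27.5% of all genes. The part of these markers in the Klf5 result was not tested. The marker that fell in E47 KO was Krt18, a keratin, which went from a mean of 117 to 1.18 CPM in E47 KO.

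Klf6 was at 288 and 291 CPM in E12 WT, 274 and 272 in E12 KO, 241 and 276 in E47 WT, and 276 and 267 in E47 KO. The libraries of E47 WT and E47 KO overlapped, and E47 WT had the widest spread within a genotype. Its log2 change was -0.08 in E12 KO (SE 0.0716, edgeR adjusted p = 0.37) and 0.07 in E47 KO (SE 0.0716, adjusted p = 0.43), and no step in its order of genotypes passed the test.

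Of the genes listed as vascular targets of KLF5 and KLF6, 17 were tested. In E12 KO 6 were higher and 8 lower, beside 21.9% and 24.5% of all genes, with a median of -0.20 on the log2 scale. In E47 KO 9 were higher and 5 lower, beside 27.7% and 27.5% of all genes, with a median of 0.20. Eng, the TGF-beta coreceptor endoglin, fell by 3.83 in E12 KO (edgeR adjusted p = 2e-12), from a mean of 62.8 to 4.39 CPM, and was at 250 and 213 CPM in E47 WT and E47 KO. The urokinase receptor gene Plaur fell by 1.12 in E12 KO. In E47 KO the receptor gene Acvrl1 fell by 3.34, while the early-response gene Egr1 rose by 1.47.

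Klf3 and Klf12 encode repressors that recruit the corepressor CtBP, and KLF12 was first known as a repressor of the gene for AP-2 alpha. Klf3 lies on chromosome 5 at 64803388 to 64832901, plus strand, and Klf12 on chromosome 14 at 99870632 to 100284679, minus strand, with 555.6 kb between it and Klf5. The Klf12 window before the RefSeq start is chr14:100149797-100150046, minus strand. It is shown because Klf12 had the widest range of the 10. In GENCODE M21 this window lies inside the gene, outside its exons, since longer transcripts start farther upstream, and those starts are not shown.
Klf12: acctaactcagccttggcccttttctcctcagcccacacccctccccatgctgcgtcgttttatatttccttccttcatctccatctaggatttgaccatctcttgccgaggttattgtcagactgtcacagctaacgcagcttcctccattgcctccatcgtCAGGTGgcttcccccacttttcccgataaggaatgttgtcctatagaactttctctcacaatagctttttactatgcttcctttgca
The capitals mark its single CANNTG, the form CAGGTG, 87 bases before the start. Over the 8 members with a promoter in the RefSeq table, 6 of the windows held CANNTG on either strand, beside 66.2% of 32851 promoters of the same length. The form CAGCTG was in 1 of 8, beside 13%, and CAGGTG or its reverse CACCTG in 1 of 8, beside 17.2%, both forms being counted within CANNTG too. The KLF-type motif CACCC, on either strand, was in 6 of 8, beside 52.0%.

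Klf12 was at 1.41 and 1.95 CPM in E12 WT, 0.0966 and 0.0601 in E12 KO, 27.0 and 26.9 in E47 WT, and 1.87 in each E47 KO library. E47 WT was far above all others, E12 WT and E47 KO overlapped, and E12 KO was close to 0, with 2 and 1 counts. The E12 KO level was 20.6-fold below that of E12 WT, from 3 against 48 counts (95% counting interval 6.63 to 103, edgeR adjusted p = 5.3e-06). The interval covers counting error only. In E47 KO, Klf12 fell by 3.84 on the log2 scale against E47 WT (SE 0.148, adjusted p = 1.6e-11), or 14.3-fold. The test of the difference between both changes did not pass (adjusted p = 0.63), with 3 counts in E12 KO behind it. E47 WT stood 335-fold above E12 KO in summed counts scaled by library size (interval 114 to 1628). The fall in E47 KO went with that of all 10 endothelial markers. In E12 KO, 3 of the 10 endothelial markers fell, among them Pecam1 from a mean of 2.05 to 0.458 CPM, beside 24.5% of all genes lower there. Of the 12 contractile markers, 7 fell and 3 rose in E12 KO. Their part in the Klf12 results was not tested.

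Klf3 was at 159 and 179 CPM in E12 WT, 162 and 164 in E12 KO, 134 and 144 in E47 WT, and 160 in each E47 KO library. E47 WT was the low genotype, by a small margin, and the E12 KO libraries lay within the range of E12 WT. Klf3 rose in E47 KO by 0.20 on the log2 scale (SE 0.0720, edgeR adjusted p = 0.028), and its change in E12 KO was -0.05 (SE 0.0719, adjusted p = 0.58). With DESeq2 the E47 KO change was 0.19 (adjusted p = 0.069). Without E47 WT replicate 1 it was 0.15 (adjusted p = 0.2), and without E47 KO replicate 1 or E47 KO replicate 2 it was 0.21 each (adjusted p = 0.084 and 0.083), so the call was lost in each.

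Klf9, Klf10 and Klf15 respond to hormones and growth factors: Klf9 and Klf15 are known targets of the glucocorticoid receptor, and Klf10 is an early TGF-beta response gene. They lie on chromosome 19 at 23141226 to 23168134 (plus strand), chromosome 15 at 38291463 to 38300706 (minus strand) and chromosome 6 at 90462576 to 90475238 (plus strand). Klf9 was at 107 and 111 CPM in E12 WT, 98.7 and 102 in E12 KO, 63.6 and 71.0 in E47 WT, and 105 and 112 in E47 KO. The 2 E47 WT libraries were below the other 6, and those of E47 KO overlapped with E12 WT. Klf9 rose in E47 KO by 0.69 on the log2 scale (SE 0.0750, edgeR adjusted p = 2.2e-06), or 1.61-fold, and its change in E12 KO was -0.12 (SE 0.0741, adjusted p = 0.21). The changes differed by -0.81 (SE 0.105, adjusted p = 1.8e-05).

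Klf10 was at 51.1 and 54.0 CPM in E12 WT, 48.6 and 50.2 in E12 KO, 16.5 and 17.4 in E47 WT, and 33.9 and 33.4 in E47 KO. E47 WT was again lowest, and E47 KO lay between it and both E12 genotypes without overlap. The rise in E47 KO was 0.98 on the log2 scale (SE 0.0817, edgeR adjusted p = 1.1e-07), or 1.98-fold, and the change in E12 KO was -0.09 (SE 0.0720, adjusted p = 0.34). The difference between the changes was -1.07 (SE 0.109, adjusted p = 1.4e-06), and E12 KO exceeded E47 KO by 0.55 (adjusted p = 1.7e-05).

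Klf15 was at 1.66 and 1.72 CPM in E12 WT, 2.56 and 1.74 in E12 KO, 3.44 and 3.67 in E47 WT, and 4.06 and 5.62 in E47 KO. The lower E12 KO library, at 1.744 CPM, was barely above the higher E12 WT library, at 1.721 CPM. Neither change passed the test, at 0.37 (SE 0.295, edgeR adjusted p = 0.33) for E12 KO and 0.42 (SE 0.212, adjusted p = 0.11) for E47 KO. Without E47 KO replicate 1 the E47 KO change was 0.66 and passed (adjusted p = 0.039). Both E47 genotypes lay above both E12 genotypes, and the step from E47 WT to E12 KO passed the test (adjusted p = 0.018), but not with DESeq2 (adjusted p = 0.056), without E12 KO replicate 2 (adjusted p = 0.16) or without E47 WT replicate 2 (adjusted p = 0.11).

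Of 13 tested glucocorticoid response genes, 5 were higher and 4 lower in E12 KO, beside 21.9% and 24.5% of all genes. In E47 KO 7 were higher and 2 lower, beside 27.7% and 27.5% of all genes. The median log2 changes of the list were -0.09 and 0.35. Fkbp5, a chaperone induced by the receptor, rose by 1.11 in E12 KO and by 2.03 in E47 KO (edgeR adjusted p = 3.7e-08 and 5e-10). Nr3c1, the receptor gene, rose by 0.56 in E12 KO, and the stress gene Gadd45g fell by 1.28. In E47 KO the signalling inhibitor gene Errfi1 rose by 0.92, and Hsd11b1, which encodes a glucocorticoid-activating enzyme, fell from a mean of 7.51 to 0.230 CPM.

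Of the genes listed as targets of KLF9, KLF10, KLF12 or KLF15, 16 were tested. In E12 KO 5 were higher and 7 lower, beside 21.9% and 24.5% of all genes. In E47 KO 8 were higher and 4 lower, beside 27.7% and 27.5% of all genes. The list medians were -0.18 and 0.21 on the log2 scale. Tfap2a, the gene for AP-2 alpha, averaged no more than 0.119 CPM in any genotype and was not tested. The matricellular gene Ccn2 fell by 1.25 in E12 KO (edgeR adjusted p = 6.4e-10), although 23.2% of its exon length is shared with other gene models. Smad2, a TGF-beta signal carrier, rose by 0.73 there, and the clock gene Nr1d1 fell by 0.70. In E47 KO the lowest p-values were those of Hsd17b11, a steroid dehydrogenase gene that rose by 1.10, Sost, an inhibitor of Wnt signalling that fell by 3.68, and Tgfb1, which rose by 0.73.

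Many KLF genes are induced together with immediate early genes when cells meet serum or stress. Of 24 such genes, all tested, 6 were higher and 11 lower in E12 KO, beside 21.9% and 24.5% of all genes. In E47 KO 13 were higher and 6 lower, beside 27.7% and 27.5% of all genes. The median log2 changes of the list were -0.16 and 0.51. Dusp1, a MAP kinase phosphatase gene, averaged 372 CPM in E12 WT, 159 in E12 KO, 145 in E47 WT and 291 in E47 KO, and fell in E12 KO by 1.23 (edgeR adjusted p = 1.4e-08). Ier3, an early survival gene, fell by 0.92 in E12 KO. In E47 KO Maff, a small MAF factor gene, fell by 1.45, and Btg2, an antiproliferative gene, rose by 1.16.

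Klf7, a broadly expressed member known mainly from neurons, lies on chromosome 1 at 64029447 to 64122282, minus strand. Klf7 was at 16.4 and 21.2 CPM in E12 WT, 32.9 and 34.8 in E12 KO, 42.0 and 44.2 in E47 WT, and 30.3 and 35.3 in E47 KO. E12 WT was the low genotype and E47 WT the high one, with the knockouts overlapping between them. Klf7 rose in E12 KO by 0.85 on the log2 scale (SE 0.113, edgeR adjusted p = 2e-05), or 1.81-fold, and fell in E47 KO by 0.40 (SE 0.102, adjusted p = 0.0038), or 1.32-fold. The changes differed by 1.26 (SE 0.152, adjusted p = 8.4e-06). Without E47 KO replicate 1, the E47 KO change was -0.28 and no longer passed (adjusted p = 0.078). Gene models on the opposite strand, Gm26649 and Gm13748, cover 39.4% of the Klf7 exon length. In these unstranded libraries their reads cannot be told apart from those of Klf7, so its counts are uncertain. Gm13748 itself had 1 count in E12 WT and 0 in E12 KO, E47 WT and E47 KO. No counts are given here for Gm26649, so those of Gm13748 do not cover the whole overlap. For Klf3 the overlap was 3.59% (Gm20033), and for the other 8 members it was 0.

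The wild types themselves differed. In E12 WT against E47 WT, 9 of the 10 KLF genes passed the test, all but Klf6, beside 55.4% of all genes. Klf6, at 0.16 (edgeR adjusted p = 0.068), passed with upper-quartile scaling (0.20, adjusted p = 0.027) and without E47 WT replicate 2 (0.26, adjusted p = 0.02). The median absolute log2 difference was 1.32 for the KLF genes and 0.37 for all. Klf3, Klf4, Klf5, Klf9 and Klf10 were higher in E12 WT, by 0.28, 1.43, 2.20, 0.69 and 1.62, and the Klf3 call was lost without E47 WT replicate 1 (0.23, adjusted p = 0.05). Klf2, Klf7, Klf12 and Klf15 were lower in E12 WT, with log2 differences of -3.10, -1.21, -4.02 and -1.08. These values cannot be told apart from differences between the lines, since the labels give no common control. In E12 KO against E47 KO, 5 KLF genes passed (52.9% of all genes), Klf4 and Klf10 higher in E12 KO and Klf5, Klf12 and Klf15 lower. Without E47 KO replicate 1 only 3 passed. In E47 KO against E12 WT, 6 passed (38.1% of all genes), with Klf2, Klf7 and Klf15 higher and Klf4, Klf5 and Klf10 lower in E47 KO, where the Klf2 call was lost without E12 WT replicate 1 (adjusted p = 0.097) or E47 KO replicate 1 (adjusted p = 0.12). In E12 KO against E47 WT, 9 passed (65.0% of all genes), all but Klf6, and beside Klf15 the calls of Klf3 (without E47 WT replicate 1, adjusted p = 0.11) and Klf7 (without E12 KO replicate 1, adjusted p = 0.06, or E47 WT replicate 2, adjusted p = 0.057) could be lost. Across libraries, the 2 of E47 WT lay above the other 6 for Klf2, Klf7 and Klf12, as for 22.6% of all genes tested, and below them for Klf3, Klf4, Klf5, Klf9 and Klf10, as for 22.0%.

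The genes most like the 3 widest-ranging members were those with the smallest root mean square (RMS) difference in mean-centred log2 CPM over the 8 libraries, among 10090 genes. For Klf12, which had only 3 counts in E12 KO, they were Epas1 (RMS 0.349), Lrrc32 (0.394) and Tnfrsf26 (0.405). Epas1, which encodes the hypoxia-inducible factor HIF-2 alpha, averaged 22.4 CPM in E12 WT, 3.82 in E12 KO, 318 in E47 WT and 34.3 in E47 KO. For Klf2 they were Frg2f1 (0.197), Fgd3 (0.224) and Mertk (0.236), and Mertk, a receptor kinase gene, averaged 27.2, 24.0, 164 and 36.0 CPM in the same order. For Klf5 they were Csrnp1 (0.154), the gap junction gene Gja1 (0.169) and Frmpd1 (0.182), with Gja1 at 662, 272, 138 and 313 CPM. Among the members, the pairs closest to each other were Klf3 with Klf6 (0.0737), both nearly flat, and Klf4 with Klf10 (0.151).

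The other 16 KLF and SP family genes were also read, of which 11 were tested. In E12 KO 5 were higher and 1 lower, beside 21.9% and 24.5% of all genes. The median log2 change was 0.26, or 0.18 with genes of 3 counts or fewer at that floor. In E47 KO 1 was higher and 3 lower, beside 27.7% and 27.5% of all genes, with a median of -0.26. Klf11, a repressor related to Klf10, averaged 10.7 CPM in E12 WT and 19.3 in E12 KO and rose there by 0.85 (edgeR adjusted p = 5.2e-05). Sp1, Sp3 and Sp4 rose there by 0.26, 0.29 and 0.40, and Sp9 fell from a mean of 1.54 to 0.103 CPM. Sp8 had no count in either wild type and averaged 1.35 CPM in E12 KO and 0.461 in E47 KO. In E47 KO Klf13 fell by 0.39, Sp4 fell by 0.36 and Sp5 fell from a mean of 1.51 to 0.349 CPM. Klf8, Klf16 and Sp2 passed in neither knockout, Klf1 and Sp7 were too low to test, and Klf14, Klf17 and Sp6 had no count in any library.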

How the data were processed

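The authors deposited raw, whole-number counts per gene, 1 column per library with no pooling. Per the submitters' processing notes, FastQC, HISAT and featureCounts were used with GRCm38 (mm10). Versions, annotation and settings were not given in the sources used here. Tests used edgeR 4.0.16 (R 4.3.3): filtering of low counts by group, scaling by trimmed means of M values (TMM), 1 model of 4 genotypes without covariates over all 8 libraries (4 residual degrees of freedom, common biological coefficient of variation 0.0598), quasi-likelihood F tests (2-sided), and Benjamini-Hochberg adjustment over 13992 genes at 0.05. SE is the absolute log2 change divided by the square root of F. For groups of 3 counts or fewer, ratios of summed counts with exact 95% conditional binomial intervals replace fitted folds. The code was tested on simulated data.

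Positions, exon lengths and overlaps come from GENCODE M21. Promoters come from RefSeq (GRCm38.p6), where 8 of the 10 members matched, all but Klf5 and Klf10. Likeness is given without correlations, since libraries fall into 4 separate clusters.

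The members, lists and tests were chosen with earlier results of these data known. Named genes were all members and, from each list and knockout, up to 3 with the lowest p, of which 1 is not reported here. Others (Tcf3, Mapk7, Tfap2a, Kdr, Tek, Wt1, Eng in E47, and repeats of Myh11, Cnn1, Pecam1 and Krt18) were named after their values were seen. Alternatives were DESeq2 1.42.0, upper-quartile scaling, no filter, only the groups compared, and leaving out each library. Replicates of a genotype held different values, and none was a copy. They differed most in E12 WT, with a chi-square per degree of freedom of 14.2. It was 5.16 in E12 KO, 4.77 in E47 WT and 5.04 in E47 KO. The model shared its estimate of the spread across genotypes.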

Additional observations from a re-analysis of the deposited data

Results flagged for a closer look

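For 6 KLF genes the change in E12 KO differed from the change in E47 KO by a test of the difference itself (edgeR, adjusted p under 0.05), which 48.6% of all genes also passed. The E12 KO change minus the E47 KO change was 2.85 on the log2 scale for Klf2 (adjusted p = 7.6e-09) and 1.26 for Klf7 (adjusted p = 8.4e-06). It was -2.85 for Klf5 (adjusted p = 4.6e-07), -1.22 for Klf4 (adjusted p = 4.8e-08), -1.07 for Klf10 (adjusted p = 1.4e-06) and -0.81 for Klf9 (adjusted p = 1.8e-05). Klf5 and Klf7 passed the test in both knockouts, in opposite directions, while Klf2, Klf4, Klf9 and Klf10 passed it in E47 KO only. The E47 side of each difference rests on the E47 WT libraries, whose summed endothelial markers were 765 and 697 CPM beside 7.65 and 5.02 in E47 KO. Their part in these differences was not tested.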

How the results depend on the processing

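Each of the 46 called KLF changes kept its direction in every alternative run, and 37 also kept their call in all of them. Of 546 alternative values, 18 no longer passed the test, and the cause was not tested. For E12 KO against E47 KO, leaving out each library gave between 3 and 5 KLF genes past the test, the lowest without E47 KO replicate 1. The direction turned for uncalled changes alone. With upper-quartile scaling, E12 KO against E47 KO gave -0.0157 for Klf3 and -0.034 for Klf6, and E47 KO against E12 WT gave 0.0342 for Klf9, which was 0.0111 with no filter on low counts. Leaving out each library gave, for E12 KO against E12 WT, -0.136 to 0.0318 for Klf3. For E47 KO against E47 WT it gave -0.0237 to 0.172 for Klf6, and for the difference between the changes -0.37 to 0.19 for Klf15. For E12 KO against E47 KO the range was -0.0594 to 0.162 for Klf7 and -0.0087 to 0.0381 for Klf6. For E47 KO against E12 WT it was -0.0562 to 0.411 for Klf12, -0.16 to 0.0032 for Klf3 and -0.0524 to 0.0485 for Klf9, and for E12 KO against E47 WT -0.0139 to 0.181 for Klf6. The Klf3 difference between the knockout changes passed under upper-quartile scaling (-0.33, adjusted p = 0.01) and without E12 WT replicate 1 (-0.34, adjusted p = 0.013). No paired analysis was possible because the labels give no replicate number shared between groups. Klf12 in E12 KO and Klf15 are limited by depth, with 3 counts and 49 to 162 counts per genotype.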

Other observations

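All 22 genes on a list of KLF cofactors, ubiquitin ligases and deacetylases were tested. In E12 KO 4 were higher and 3 lower, beside 21.9% and 24.5% of all genes. In E47 KO 6 were higher and 8 lower, beside 27.7% and 27.5% of all genes. The median log2 changes of the list were 0.09 and -0.03. Wwp1, a ligase known to act on KLF2 and KLF5 proteins, averaged 93.5 CPM in E12 WT, 53.4 in E12 KO, 147 in E47 WT and 87.9 in E47 KO, and fell by 0.81 and 0.74 in E12 KO and E47 KO (edgeR adjusted p = 1.8e-06 and 2.3e-06). In E12 KO the deacetylase gene Hdac3 rose by 0.63 and the cofactor gene Fhl3 by 0.54, and in E47 KO the corepressor gene Rcor1 fell by 0.79. Cdh1 stood on that list by mistake: the row holds E-cadherin, which is no KLF cofactor, and it averaged 0.332 CPM in E47 WT and 36.4 in E47 KO. The counts and medians of the list still include Cdh1, which was among the genes higher in both knockouts.

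Among other cell types, 4 of 8 macrophage markers were tested, with 1 higher and 3 lower in E12 KO and 1 higher and 2 lower in E47 KO, and summed levels of 11.4 to 16.4 CPM in all libraries. Itgam had no count anywhere. Of 8 adventitial fibroblast markers, all tested, 4 were higher and 2 lower in E12 KO, and 5 higher and 2 lower in E47 KO. Of these, Dcn averaged 2.05 CPM in E47 WT and 94.7 in E47 KO, while Cd34 averaged 93.4 and 18.1. Over all genes, 21.9% were higher and 24.5% lower in E12 KO, and 27.7% and 27.5% in E47 KO. Adipocyte markers (3 of 8 tested, 3 higher in E12 KO, 1 higher and 1 lower in E47 KO) summed to 10.6 to 33.6 CPM, and striated muscle markers (3 of 8 tested, 1 higher and 2 lower in E12 KO, 3 lower in E47 KO) to 15.0 to 80.8 CPM. Cidec and Myh6 had no count in any library.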
